A study of Danio rerio with 2 samples.

Results

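The sites described here were open in neuroblastoma cells of both MYCN and MYC transgenic zebrafish, but stood much higher in the ranking of the MYCN library than in that of the MYC library. Each site is a pair of ATAC-seq peaks, 1 from each library, that overlapped by at least 1 bp and overlapped no other peak of the other list. The caller's score of each peak was turned into a percentile within its own whole list, where 100 is the highest score. A pair was kept when its MYCN percentile exceeded its MYC percentile by 30 points or more. Of 52911 such pairs on the 25 chromosomes, 3210 met this rule, or 6.07% of pairs. The sites were chosen by the deposited scores of both lists, so the difference in rank is a description and carries no test.

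ATAC-seq uses the Tn5 transposase to insert sequencing adapters into DNA that is not wrapped in nucleosomes or bound tightly by protein, so a peak marks an accessible stretch such as a promoter, an enhancer or an insulator. MYCN and MYC are closely related transcription factors that bind DNA together with the partner protein MAX, mostly at promoters and enhancers that are already open. MYCN is the family member most often amplified in human neuroblastoma, a childhood tumour of the sympathetic nervous system, and some tumours without that amplification carry high MYC. A regulatory element can be accessible in several tumours and still differ in how often it is open, which a peak caller's score reflects only together with read depth and local background.

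Both groups were EGFP+ neuroblasts sorted from dispersed tumours of fish carrying the dbh:EGFP reporter, which marks cells of the noradrenergic lineage because dbh encodes the enzyme that makes noradrenaline. The MYCN group was 1 library from tumour-bearing MYCN transgenic fish, and the MYC group was 1 library from tumour-bearing MYC transgenic fish. Age, the number of fish pooled, the promoter that drives either oncogene and the fish strain are not given in the labels. With 1 library per transgene, every difference below compares these 2 libraries and has no replicate check, and the read depth behind a peak is unknown. The lists carry no gene names, so the noradrenergic identity of the cells could not be checked against marker genes, and sites are given by position on danRer7 without annotation.

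The MYCN list held 68559 peaks and the MYC list 77836, and 55931 and 55317 of these on the chromosomes overlapped a peak of the other list. A 1-to-1 partner was found for 52911 of them, which left 3020 MYCN and 2406 MYC overlapping peaks outside the pairs because they, or the peak they touched, overlapped more than 1 peak of the other list. In the opposite direction, 5457 pairs stood 30 points or more higher in MYC, or 10.3% of pairs. This balance depended on the set that was ranked. The ranking of the MYC list includes 22517 peaks without a MYCN partner, and that of the MYCN list includes 12625 without a MYC partner. Of the pairs that differed by 30 points or more, 37.0% were higher in MYCN when ranks were taken in the whole lists, 52.2% when ranks were taken among the pairs alone, and 51.8% when the MYC list was trimmed to the length of the MYCN list. Percentiles from lists of unequal length do not show that accessibility changed.

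The selected sites were of moderate strength in MYCN and weak in MYC. Their MYCN scores ran from 65 to 603 with a median of 137 (quartiles 102 and 186), and their MYC scores ran from 14 to 180 with a median of 50 (quartiles 38 and 70). In percentiles, the median was 64.3 in MYCN and 18.5 in MYC. Across all pairs the median percentile was 58.3 in MYCN and 63.1 in MYC, so the sites lay near the middle of the MYCN ranking and far down the MYC ranking. The highest decile of MYCN scores held 120 of the sites, or 3.74%, against 12.8% of the other pairs. The lowest decile of MYC scores held 960 sites. The first quartile of the MYC percentile was 8.57 among the sites and 40.8 over all pairs. These values follow from the rule. Both the highest MYCN decile and the lowest MYC decile held 4 sites in common.

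The size of the difference tapered off quickly above the limit. Differences of 30 to 40 points were found at 1611 sites, or 50.2% of them, and 898 sites had 40 to 50 points. A further 444 had 50 to 60 points, 185 had 60 to 70, and 72 had 70 or more, up to 88.8. Sites with larger differences had both higher MYCN and lower MYC scores, with medians of 121 and 57 in the lowest class and of 231 and 37 in the highest. The classes were cut on the difference of the ranks of these scores, so this trend describes the classes.

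**Figure D1:**
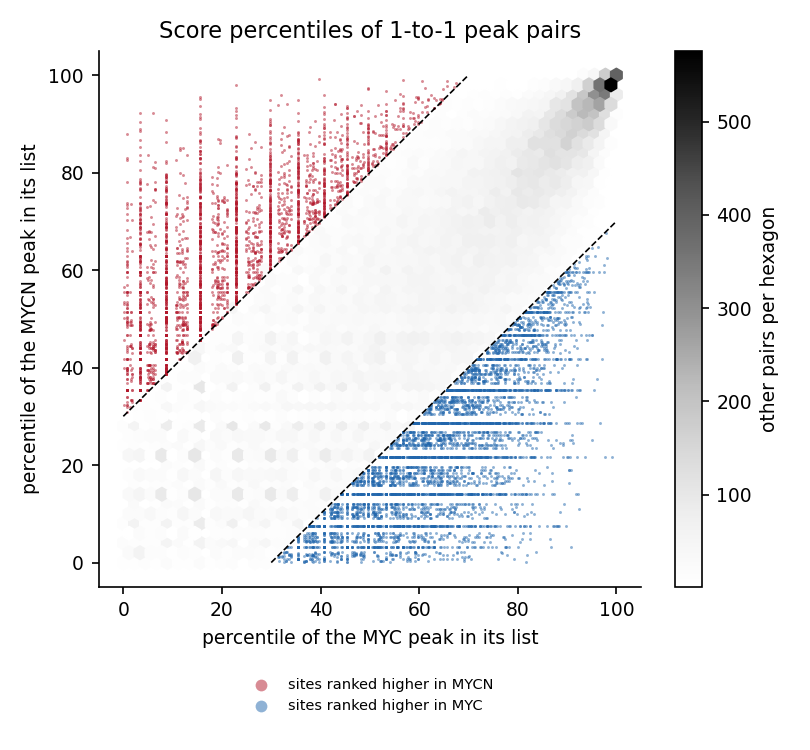
Score percentile of the MYC peak (horizontal axis, percent) against that of the MYCN peak (vertical axis, percent) for all 1-to-1 pairs, with pairs less than 30 points apart shown as grey hexagons and the limits as dashed lines. The 3210 sites ranked higher in MYCN (red points) fill the area above the upper line, and their vertical stripes are MYC peaks with tied scores.

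Low MYC scores came in steps, which sets how finely these sites can be ranked. The MYC scores 47, 38, 29, 57 and 67 were held by 409, 395, 283, 272 and 185 of the sites. These 5 values made up 48.1% of the sites and 17.8% of all MYC peaks. They were named as the most frequent among the sites, and the rule favours low MYC scores. The higher share among the sites therefore describes the selection. All MYC peaks of a tied score share 1 percentile, so a step of a single score value can carry a pair across the limit.

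At the limit itself there was no gap. Within 1 point above it lay 199 sites, and within 1 point below it lay 206 pairs. Just inside, chromosome 8 held a site at 22082068 to 22082387 with a MYCN score of 185 and a MYC score of 99, a difference of 30.004 points. The other 4 nearest inside were 2 on chromosome 18, at 31800224 to 31800484 (MYCN score 99, MYC score 54) and at 43562595 to 43562980 (384 and 163), 1 on chromosome 14 at 12414649 to 12415084 (148 and 80), and 1 on chromosome 7 at 14372076 to 14372407 (77 and 38). Just outside, chromosome 21 held a pair at 42338984 to 42339259 with a MYCN score of 225 and a MYC score of 116, a difference of 29.997 points. The other 4 nearest outside were 1 each on chromosome 23 at 29246250 to 29246457 (67 and 28), chromosome 1 at 37837398 to 37837750 (155 and 86), chromosome 11 at 33755108 to 33755638 (360 and 158) and chromosome 21 at 36677769 to 36678344 (172 and 93). These pairs were picked as the nearest to the limit, so the lack of a contrast across it describes the choice.

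Chromosome 20 held the site with the largest difference, at 47956369 to 47956788. Its MYCN peak was 420 bp wide with a score of 343 and ranked 5355 of the list, at percentile 92.2, and its MYC peak at 47956397 to 47956596 was 200 bp wide with a score of 29, at percentile 3.32. A strong element of the MYCN library was thus barely called in MYC, and another selected site lay 6.05 kb away. The 6 other pairs within 50 kb, 1 of them selected, had a median difference of -1.39 points, against -2.66 over all pairs.

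Chromosome 22 held the second and the eighth of the sites ordered by difference. The second, at 30979864 to 30980522, had a MYCN score of 282 and a MYC score of 21, and the eighth, at 26488764 to 26489090, had 235 and 21. Only 790 MYC peaks shared the score of 21, at percentile 0.745, close to the weakest called. The second site had 1 other pair within 50 kb and its nearest selected neighbour 316 kb away, whereas the eighth had a selected neighbour 19.8 kb away.

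Chromosome 1 held the third and the fourth. The third, at 21104810 to 21105349, had a MYCN score of 315 and a MYC score of 29. The fourth, at 60202596 to 60203285, had a MYCN score of 345 and a MYC score of 36, and its 690 bp MYCN peak enclosed a MYC peak of 265 bp. The third had 2 other pairs within 50 kb, 1 of them selected, with a median difference of 19.7 points. The fourth had 5 other pairs within 50 kb, 1 of them selected, with a median difference of 24.1 points.

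The remaining sites of the first 10 were spread over chromosomes 10, 12 and 13. On chromosome 10 the sites at 20332347 to 20332919 and at 2348184 to 2348537 had MYCN scores of 294 and 290, each against a MYC score of 29. Chromosome 13 held a site at 14393752 to 14394447 that had a MYCN score of 269 and a MYC score of 29, its MYCN peak being 696 bp and its MYC peak 200 bp wide. On chromosome 12 the sites at 19772850 to 19773228 and at 12468808 to 12469149 had MYCN scores of 321 and 255 against MYC scores of 38 and 29. Of these 10 sites, 6 had a MYC peak of 200 bp, the smallest width in the list, 9 had a MYC peak that lay wholly inside the MYCN peak, and 4 had another selected site within 50 kb.

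The 10 sites with the highest MYCN scores paired a very strong MYCN peak with a MYC peak at percentile 22.9 to 67.4. None of these 10 was among the 10 with the largest difference. The lists were ordered by different values, so the contrast between them describes the ordering. Chromosome 2 carried the highest, at 60216263 to 60217103, with a MYCN score of 603 and rank 604, and a MYC peak at 60216059 to 60217041 with a score of 87 at percentile 39.6. This was a broad accessible element in both libraries, 841 bp wide in MYCN and 983 bp in MYC.

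Chromosome 3 carried the next, at 52538339 to 52539147, which scored 596 in MYCN against 133 in MYC, and its MYCN peak of 809 bp was wider than the MYC peak of 366 bp. On chromosome 15, the pair at 6711516 to 6712042 had a MYCN score of 574 and a MYC score of 170. On chromosome 16 the sites at 28280314 to 28280915 and at 10710508 to 10711249 had MYCN scores of 563 and 481 and MYC scores of 147 and 150. These elements were of similar width in both libraries on chromosomes 15 and 16.

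Among the highest scores, the site on chromosome 4 at 33673721 to 33674669 stood out by its difference of 75.0 points. Its MYCN peak was 949 bp wide with a score of 509, and its MYC peak at 33674146 to 33674356 was 211 bp wide with a score of 57. It lay on the long arm of the chromosome, with 3 MYCN-only peaks and 1 MYC-only peak within 50 kb. The others lay on chromosome 18 at 6736710 to 6737096 (MYCN score 539, MYC score 180), chromosome 22 at 40082537 to 40082939 (504 and 170), and chromosome 12 at 18748539 to 18749030 (494 and 178) and at 10477749 to 10478181 (477 and 110). The site at 10477749 was the most solitary, with no other pair within 50 kb and the nearest selected site 991 kb away.

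**Figure D2:**
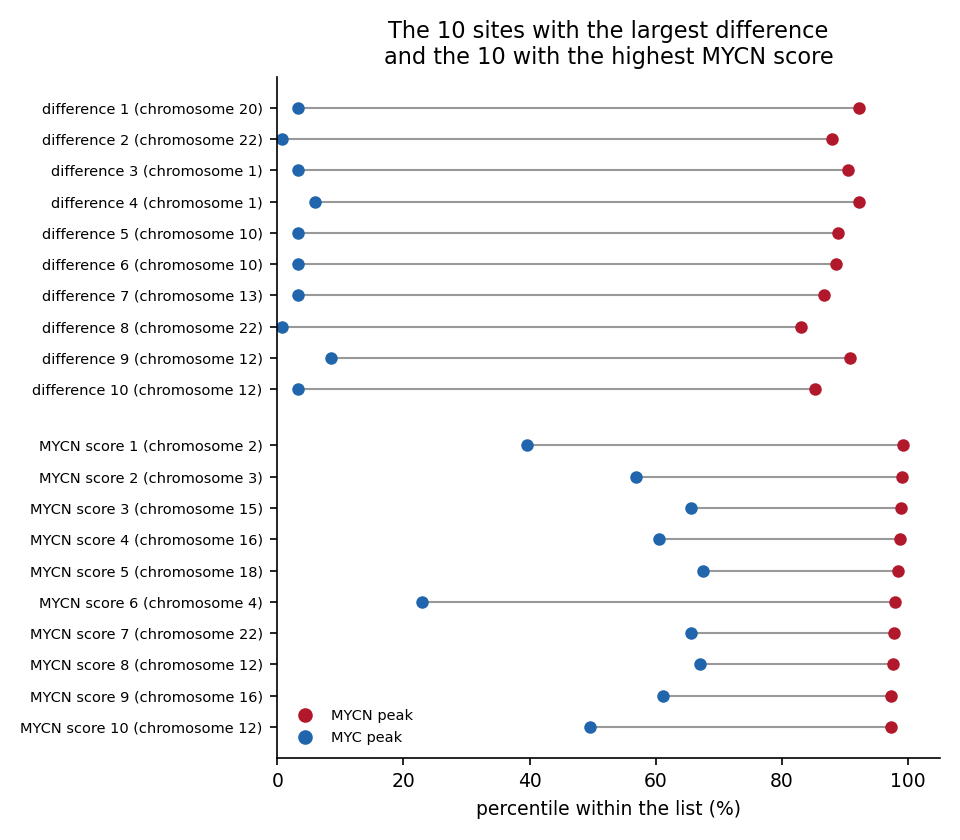
Percentile within its own list (horizontal axis, percent) of the MYCN peak (red) and the MYC peak (blue) at the 10 sites with the largest difference and the 10 with the highest MYCN score, in order and joined by a line per site. In the upper group the MYC peak lies at percentile 8.57 or lower, and in the lower group it lies between 22.9 and 67.4.

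Selected sites were narrower in MYC than in MYCN, against the trend of the lists. The median width was 351 bp in MYCN and 270 bp in MYC, and the median of the ratio of MYCN to MYC width was 1.25, where over all pairs it was 0.936. The MYCN peak was the wider at 2574 sites, or 80.2%, against 35.0% of all pairs. At 51.6% of the sites the MYC peak lay wholly inside the MYCN peak, against 15.7% of all pairs. Width and score come from the same peak call and a stronger peak is usually wider, so these values describe the selection and are no separate evidence for it.

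A pair of sets serves as a comparison. Pairs ranked 30 points or more higher in MYC mirror the selected sites. A set of 3241 even pairs, less than 10 points apart and with a mean percentile from 31.6 to 52.9 (the middle range of the selected sites), has about the same overall rank without the difference. The mirrored pairs had a median width of 261 bp in MYCN and 384 bp in MYC, a ratio of 0.734, and the even pairs had a ratio of 0.937. A MYC peak of the smallest width, 200 bp, was found at 14.4% of the selected sites, against 2.77% of all pairs. A MYCN peak of that width was found at 13.4% of the mirrored pairs, against 4.15% of all pairs. In either direction the lower-ranked peak was at the smallest width in a minority of pairs, but more often than over all pairs. The centres of the paired peaks lay a median of 34 bp apart at both the selected and the mirrored sites, against 28.5 bp at the even pairs.

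The width ratio grew with the difference in rank and varied little with strength in MYCN. It was 1.17 at sites with 30 to 40 points, 1.29 with 40 to 50, 1.36 with 50 to 60, 1.54 with 60 to 70 and 1.67 above 70. By MYCN percentile it was 1.24 from 30 to 50, 1.26 from 50 to 70, 1.25 from 70 to 90 and 1.20 above 90. Compared with other pairs of the same MYCN percentile, the MYCN peak of a selected site was slightly wider in the lowest class (304 against 282 bp). It was narrower from 50 to 70 (332.5 against 343 bp), from 70 to 90 (382 against 426 bp) and above 90 (443 against 525 bp). The lowest and the highest class are not matched within themselves. A pair near MYCN percentile 30 meets the rule only if its MYC percentile is near the bottom. At the top, the selected sites reached a MYCN score of 603 and all pairs reached 2541.

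**Figure D3:**
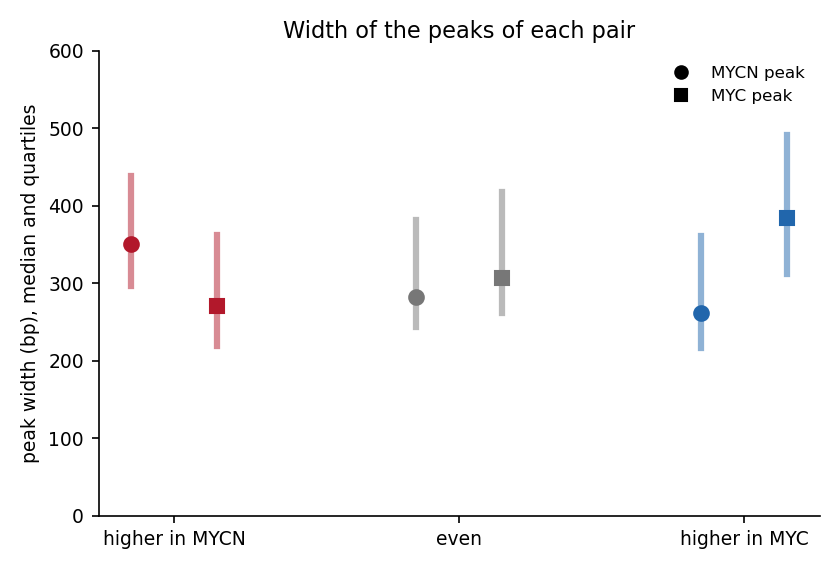
Width in bp of the MYCN peak (circle) and the MYC peak (square) as median with quartiles (bar) for sites higher in MYCN, even pairs and sites higher in MYC. The MYCN peak is the wider at sites higher in MYCN (351 against 270 bp) and the narrower at sites higher in MYC (261 against 384 bp).

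Selected sites were more often alone in their surroundings than other pairs. At 909 sites, no further MYCN or MYC peak was called within 10 kb (28.3%), whereas this held for 20.2% of all pairs, 19.5% of the even pairs and 18.1% of the mirrored pairs. Within 50 kb the median number of other peaks was 11 around the selected sites, 13 around all pairs and the even pairs, and 14 around the mirrored pairs. This position was not part of the rule. The counts take in the list-only peaks described next, so they are not separate from those. They were not repeated under the alternative settings.

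The peaks next to selected sites also leaned towards MYCN. List-only peaks, which overlap no peak of the other list, were not used by the rule beyond their place in the ranking. Of 7268 list-only peaks within 50 kb of a selected site, 3114 were MYCN-only, a share of 42.8% (95% Wilson interval 41.7 to 44.0), against 35.9% genome-wide (35.4 to 36.4). Within the same distance the share was 33.3% around the even pairs (32.3 to 34.3) and 27.3% around the mirrored pairs (26.5 to 28.1). The intervals cover counting error only, and neighbouring peaks of 1 library are not independent, so they are too narrow for a test.

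The lean was present at each distance examined. The MYCN-only share was 39.7% within 5 kb (36.5 to 43.0), 44.9% within 10 kb (42.5 to 47.2), 44.1% within 20 kb, 41.5% within 100 kb and 40.2% within 200 kb. Counted by site, 688 selected sites (21.4%) had a MYCN-only peak within 10 kb and 782 (24.4%) a MYC-only peak. Among all pairs these shares were 17.1% and 32.0%, and among the mirrored pairs 15.7% and 37.1%. The surroundings of selected sites were therefore both richer in MYCN-only peaks and poorer in MYC-only peaks than those of an average pair.

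**Figure D4:**
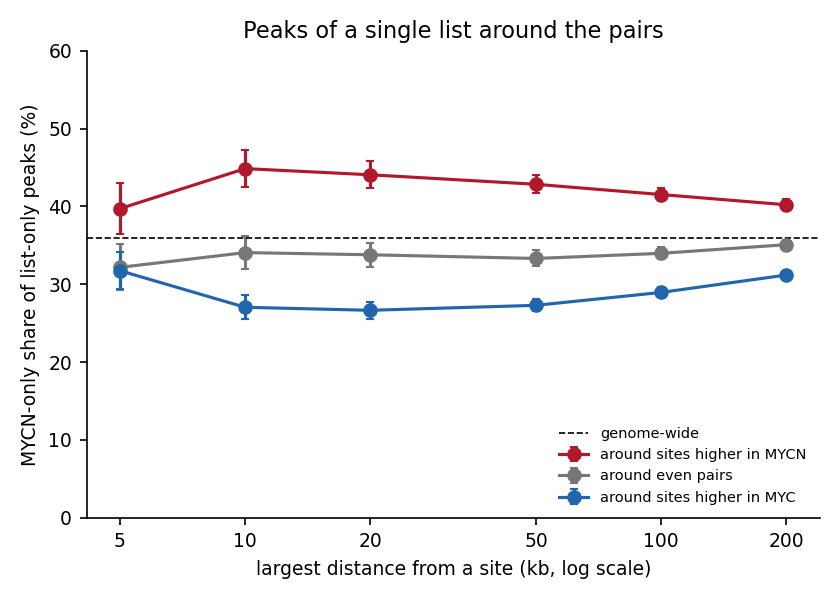
MYCN-only share of the list-only peaks (vertical axis, percent, with 95% Wilson intervals of counting error) within a given distance (horizontal axis, kb, log scale, cumulative) of sites higher in MYCN (red), even pairs (grey) and sites higher in MYC (blue), with the genome-wide 35.9% as a dashed line. The red points lie above the line at each of the 6 distances and the blue points below it.

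Shared pairs close to a selected site shifted in the same direction, by less. Pairs outside the selection and within 50 kb of a selected site had a median difference of -1.99 points, where all 49701 pairs outside the selection had -3.86. Within 10 kb the median was -0.53 over 2122 pairs, and within 200 kb it was -2.46. When pairs of 30 points or more in either direction were left out, the remaining pairs within 10 kb had a median difference of 0.45 around selected sites, -1.96 around even pairs and -4.18 around mirrored pairs, and -1.85 over the genome. These pairs come from the same libraries as the sites themselves.

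Selected sites lay near each other about as often as even pairs did, within the overlap of the counting intervals, and the difference was not tested. Another selected site lay within 100 kb of 1402 sites, a share of 43.7% (42.0 to 45.4), and another even pair lay within 100 kb of 41.8% of the 3241 even pairs (40.1 to 43.5). Within 50 kb the shares were 28.1% (26.5 to 29.6) and 25.8% (24.3 to 27.3). These shares make no allowance for local density, with a median of 11 other peaks within 50 kb of selected sites and 13 of even pairs. Nearly every pair of the whole set had some other pair within 100 kb (99.5%) and within 50 kb (97.0%). Among neighbouring pairs, selected sites were more frequent around a selected site than around any pair. Of the other pairs within 10 kb, 9.41% were selected around a selected site, 4.72% around any pair and 4.82% around an even pair. The share of mirrored pairs among these neighbours was 7.16% around selected sites and 9.98% around any pair.

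In the order of pairs along a chromosome, most selected sites stood singly. The sites made up 6.07% of pairs, and no comparison with a random order was made. Among consecutive pairs, 2572 selected sites had a pair outside the selection on either side, 263 series held 2 selected sites, 33 held 3, 2 held 4 and 1 held 5. The longest lay on chromosome 20 over 125 kb, from 19865376 to 19990032. Its 5 sites had MYCN scores of 104, 169, 109, 263 and 123 and MYC scores of 21, 67, 47, 97 and 48, in order along the chromosome. The strongest of them, at 19977543 to 19978261, was 86.1 in MYCN percentile and 44.1 in MYC percentile.

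A compact series on chromosome 13 had the larger differences. Its 4 sites lay within 41.9 kb, from 45889174 to 45931096, and no other peak of either list was called in that stretch. Their MYCN scores were 288, 202, 222 and 150 and their MYC scores 77, 38, 57 and 29, which gave differences of 53.1, 69.7, 58.2 and 64.4 points. All 4 MYCN and 4 MYC peaks called in this stretch belonged to these sites, each of which stood more than 50 points higher in the MYCN ranking.

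The other series of 4 lay on chromosome 12 from 7736962 to 7839390, with MYCN scores of 266, 195, 110 and 165 and MYC scores of 38, 99, 38 and 57. Among the series of 3, the 2 with the largest median difference lay on chromosome 6 from 20538687 to 20571135 and, farther apart, on chromosome 23 from 1432353 to 1487634. The chromosome 6 sites had MYCN scores of 177, 349 and 189 and MYC scores of 38, 88 and 47, with 2 MYCN-only peaks and no MYC-only peak in between. The chromosome 23 sites had MYCN scores of 209, 82 and 174 and MYC scores of 57, 38 and 38. The MYCN percentile exceeded the MYC percentile by over 50 points at all 3 sites on chromosome 6 and at 2 of 3 on chromosome 23.

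Along the genome, 1152 of 1369 windows of 1 Mb that held a pair contained a selected site, with a median of 2 and at most 11 per window. The most lay on chromosome 9 at 46 to 47 Mb, where 11 of 43 pairs (25.6%) were selected and 1 was mirrored, and on chromosome 15 at 43 to 44 Mb, where 11 of 46 (23.9%) were selected and 1 was mirrored. The strongest site of the chromosome 15 window, at 43811624 to 43811974, had a MYCN score of 428 and a MYC score of 88. Chromosome 13 at 20 to 21 Mb followed with 10 of 37 pairs. These shares exceeded the genome-wide share, but the windows were named for their counts.

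On chromosome 7 at 46 to 47 Mb, 9 of 31 pairs (29.0%) were selected and 0 mirrored, and the window held 30 MYCN-only and 6 MYC-only peaks. Its strongest selected site, at 46749323 to 46749720, had a MYCN score of 346 and a MYC score of 77. On chromosome 3 at 43 to 44 Mb, 9 of 34 pairs were selected, beside 25 MYCN-only and 9 MYC-only peaks. The same number of selected sites, 9, was found in 6 windows, of which these 2 had the highest share. Across 1337 windows with at least 10 pairs and 10 list-only peaks, the share of selected pairs and the MYCN-only share had a Spearman correlation of 0.50, a description over windows that share both libraries. The windows with most pairs but no selected site, named after their values were seen, lay on chromosome 22 at 2 to 3 Mb (72 pairs) and 0 to 1 Mb (65 pairs) and on chromosome 3 at 15 to 16 Mb (62 pairs).

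Chromosomes differed little in their share of selected sites. It ran from 5.06% of pairs on chromosome 16 to 7.18% on chromosome 13, and the 95% Wilson interval held the genome-wide share on 22 of 25 chromosomes. The interval lay above that share on chromosome 12 (7.16%, 6.10 to 8.39) and chromosome 13 (6.17 to 8.34), and below it on chromosome 16 (4.22 to 6.05). On chromosomes 12 and 16 it missed the genome-wide 6.07% narrowly, and no allowance was made for reading 25 intervals. The share of mirrored pairs varied over a wider range, from 6.66% on chromosome 1 to 14.6% on chromosome 4. With ranks in the whole lists, chromosome 1 was the one where both directions were equally frequent, with 164 pairs each. The balance of the directions depended on the set that was ranked, as described above.

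The even share on chromosome 4 hid a contrast between its ends. In the first 22 Mb 23 of 995 pairs were selected, or 2.31% (1.55 to 3.44), and 19.0% were mirrored. After 22 Mb, where the gene-poor heterochromatic long arm lies, 76 of 757 pairs were selected, or 10.0% (8.10 to 12.4), and 8.85% were mirrored. The limit at 22 Mb was taken from an earlier look at the same lists. Within 2 Mb of either chromosome end (the last peak was taken as the far end), 5.07% of pairs were selected (4.49 to 5.73), against 6.17% elsewhere (5.96 to 6.39), and on chromosomes 3 and 12 together the share was 6.49% (5.81 to 7.24).

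**Figure D5:**
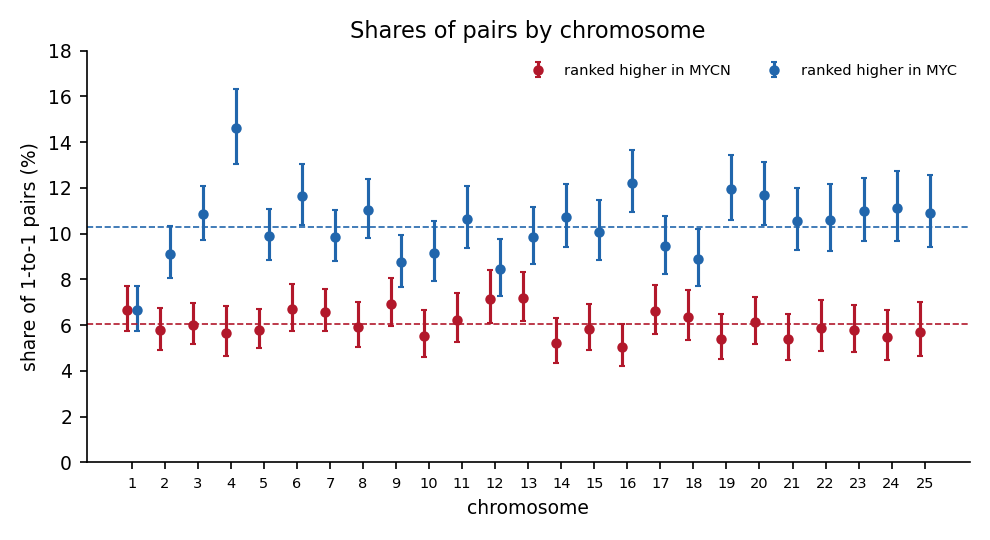
Share of 1-to-1 pairs (vertical axis, percent, with 95% Wilson intervals of counting error) that were ranked higher in MYCN (red) or higher in MYC (blue) on each of the 25 chromosomes, with the genome-wide shares as dashed lines. The red shares lie between 5.06% and 7.18%, and the blue share is highest on chromosome 4 at 14.6%.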

How the data were processed

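Open chromatin was measured by ATAC-seq in 1 MYCN and 1 MYC library of EGFP+ neuroblasts, sorted by flow cytometry per the labels. Per the submitters' processing notes, Bowtie2 2.2.1 and MACS2 2.1.0 were used with danRer7. Settings, duplicate removal, the Tn5 shift and controls are not given in the sources used here. For either library the authors deposited a peak list that gives each peak a whole-number score, from 13 upwards, on a scale that no header states. It is the authors' own value, and sites were chosen by ranks within a list, with average ties. An alternative setting kept only scores of at least 30. Scores of both lists are printed side by side as deposited, and whether they are comparable between lists is unknown. Depth is unknown. Starts are counted from 1 and distances run between midpoints. The number of other peaks around a site is the exception. It was counted from the outer edges of the site and took in any peak reaching into the span.

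Pandas 2.3.3 and numpy 2.4.6 under Python 3.11.15 were used for the overlaps. Their total number was checked against bedtools 2.31.1 (56562 overlaps by both). The pairing was also run on simulated lists whose paired peaks had the same positions. That run did not cover partial overlaps or peaks with several partners. Figures used matplotlib 3.10.9. No test was run, since each transgene had 1 library. Wilson intervals cover counting error only. The intervals of medians treat sites or pairs of the same libraries as independent, which they are not.

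The sites, comparisons and rules for named sites were chosen with earlier results of these lists known. Named sites were the 10 with the largest difference, the 10 with the highest MYCN score, 5 on each side of the limit, the 5 windows of 1 Mb with most sites (ties by share of pairs) and the 5 longest series (ties by median difference). The even pairs, the windows without a site and the setting without chromosome 4 were added after the data were seen. Planned comparisons of promoters, genes and motifs were not run, since a danRer7 annotation and sequence were not used here.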

Additional observations from a re-analysis of the deposited data

Results flagged for a closer look

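A pair on the mitochondrial genome, outside the chromosomes that the rule covers, differed by 88.7 points, nearly as much as the largest difference among the 3210 sites (88.8). Its MYCN peak at 46 to 3577 had a score of 318 at percentile 90.6, and its MYC peak at 46 to 3588 had a score of 28 at percentile 1.84. The widths of 3532 and 3543 bp were nearly equal, unlike at the selected sites. A second MYC peak, at 13218 to 16544 with a score of 85 and percentile 38.9, overlapped 2 MYCN peaks. The MYCN peak at 13531 to 16543 had a score of 84 at percentile 43.2, 4.31 points higher, and the MYCN peak at 13237 to 13437 had a score of 24 at percentile 0.721, a difference of -38.2 points.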

How the results depend on the processing

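Of 41 values under 10 alternatives fixed at the outset and 1 added later, 11 stayed within 1.5 times the count or within the interval of the main value and 30 did not. Counts, width ratios and shares cannot be negative, so only the median difference of neighbouring pairs could change sign. That median stayed negative in each setting, but its 95% interval reached above 0 in some. The interval was taken from the ordered differences of the neighbouring pairs. These pairs are not independent, so it is too narrow for a test. The interval was -0.387 to 0.050 with the MYC list trimmed, where all unselected pairs had a median of -1.61. With ranks among pairs alone it was -0.272 to 0.186, where all unselected pairs had -1.76. Within 10 kb it was -1.23 to 0.0019, where all unselected pairs had -3.86. The number of sites was 6118 at 20 points and 1599 at 40 points, in place of 3210 at 30. The median width ratio (1.25) was 1.22 with 50% reciprocal overlap and with scores of at least 30, 1.15 with the MYC list trimmed, 1.19 with ranks among pairs alone, 1.17 at 20 points and 1.35 at 40, each above that of all pairs in the same setting. The share with another selected site within 100 kb (43.7%) was 40.1% with reciprocal overlap, 52.3% trimmed, 53.5% among pairs alone, 64.6% at 20 points, 25.5% at 40, 28.1% within 50 kb and 90.1% within 500 kb, so it followed the number of sites and the distance. The median difference of neighbouring pairs (-1.99) was -1.62 with reciprocal overlap, -1.51 with scores of at least 30, -0.16 trimmed, -0.043 among pairs alone, -3.55 at 20 points, -0.88 at 40, -0.53 within 10 kb and -2.46 within 200 kb, in each of the 10 settings above that of all unselected pairs. The MYCN-only share of list-only peaks was 42.8% against 35.9% genome-wide in the main setting. It was 45.1% with reciprocal overlap (genome-wide 39.9%), 45.9% with scores of at least 30 (genome-wide 38.5%) and 55.1% trimmed (genome-wide 48.8%). Against the unchanged 35.9%, it was 40.8% at 20 points, 45.2% at 40, 44.9% within 10 kb and 40.2% within 200 kb. In each of the 10 settings the share was above the genome-wide share of that setting. The sites chosen depended on the ranking, and 2150 of the 3210 remained with the trimmed MYC list and 2902 with ranks among pairs alone. Without chromosome 4, chosen after seeing the data, the number of sites was 3091 and each other value stayed within its interval. No paired analysis was possible because MYCN and MYC had 1 library each, and no replicate could be left out. Unknown read depth limits every rank.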

Other observations

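Overlapping peaks that were not 1-to-1 formed 1778 groups on the chromosomes, of which 1159 held more MYCN than MYC peaks and 560 more MYC peaks. With each group represented by its highest percentile on either side, 53 groups (2.98%) stood 30 points or more higher in MYCN and 144 (8.10%) higher in MYC. The median difference over the groups was -3.18 points, against -2.66 over the 1-to-1 pairs.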
